A study of Mus musculus with 4 samples.

Results

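The autophagy genes of mouse pancreatic islets, which hold the insulin-secreting beta cells, are described here in 4 RNA sequencing libraries. They were chosen by symbol: every gene named Atg with a number, the Map1lc3, Gabarap and Wipi families, Ulk1, Ulk2 and a list of further core genes and cargo receptors. A mean of at least 1 FPKM (fragments scaled by transcript length and library total) was required. Of 41 matching symbols, 40 passed, among 11953 genes that passed the same filter. The lowest member was Atg2a, at a mean of 6.60 FPKM, and the symbol left out was Atg9b, at 0.278 FPKM. Epg5, also on the list, was not found under that name.

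All mice had the strain label C57BL/6 and were either wild type (WT) or KR mutants; no source used here gives age or sex. The series concerns deacetylation of the transcription factor FoxO1, and KR mice are known as carriers of a Foxo1 allele whose acetylated lysines are changed to arginines, which resembles the deacetylated protein. The feeding states were fasted, given as 48 h in the titles and as 24 h in the extraction protocol, and refed for 6 h after the fast. Islets of 3 mice per genotype were pooled, which gave 1 library for each genotype in each feeding state and no replicate library. Insulin, amylin and glucagon transcripts (Ins1, Iapp and Gcg) were abundant in all 4 libraries, with Iapp between 35463 and 66975 FPKM. Depth, estimated from the deposited bounds as a number of implied fragments, relative to the fasted WT library was 0.683 for WT after refeeding, and 1.01 before and 0.418 after it for KR. For the 40 genes the counting error reached at most 5.2% (fasted) and 5.54% (refed) of the level in WT, and 5.38% and 8.19% in KR.

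Autophagy delivers cytoplasm to the lysosome inside a double-membraned vesicle, the autophagosome. A kinase complex around Ulk1 starts it, a lipid kinase complex around Pik3c3 and Becn1 marks the membrane, lipid carriers enlarge it, and 2 linked conjugation systems attach small ATG8 proteins (the LC3 and GABARAP families) to its lipid. Cargo receptors bind ATG8 proteins on one side and ubiquitin, endoplasmic reticulum or mitochondria on the other, and are themselves degraded with the cargo. In beta cells the pathway is known to be needed for normal insulin secretion and to take part in the turnover of organelles and secretory granules.

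Levels differed widely among the members. FPKM is scaled by length, so levels may be set beside each other: 5 members had a mean over 100 FPKM, 29 lay between 10 and 100, and 6 lay under 10, with a median of 19.7 FPKM. The highest were Sqstm1, which encodes the ubiquitin-binding receptor p62, at a mean of 665 FPKM, and Gabarap, an ATG8 gene, at 609 FPKM. These and the ATG8 gene Gabarapl1 (212 FPKM) made up 58.5% of the summed level of the 40 genes in WT when fasted and 55% when refed, and 57.0% and 53.4% in KR. Core enzymes were much lower, for example Atg7, the activating enzyme of both conjugation systems, at 8.52 FPKM and Ulk1 at 11.4 FPKM.

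After refeeding the autophagy genes moved in both directions. In limma, fitted over all genes in an additive model of feeding state and genotype on log2(FPKM + 1), 12 of 40 were higher and 15 lower in refed islets, and 13 were not called, at a Benjamini-Hochberg adjusted p under 0.05. Among all tested genes 27.7% were called higher, 29.2% lower and 56.9% in either direction, beside 30.0%, 37.5% and 67.5% of the members. The largest called changes of the members were falls. Called with a fitted difference of at least 0.5 on the log2 scale were 5 members (12.5%), all lower after refeeding. Among all tested genes 19.5% reached this size and call, 981 of them higher and 1355 lower. Both refed libraries lay above both fasted ones in 15 members and below them in 18, beside 36.9% and 38.8% of all tested genes. The median log2 ratio of the members, refed over fasted, was 0.0015 in WT and -0.06 in KR, beside 0.0042 and -0.02 for all tested genes. All 27 called members had the same sign in WT and in KR. The call itself favours this, since the residual of the model is the difference between the responses of the 2 genotypes. In 26 of the 27 the deposited bounds of the fasted and refed library lay apart in both genotypes, the exception being Ambra1. These bounds cover counting error only. Bounds lay apart in the same direction in both genotypes for 26 of the 40 members, beside 45.5% of all tested genes. With 1 library per group these p-values rest on the departure of 4 pooled libraries from the additive model. With no filter on low values none of the 27 calls was kept, with adjusted p of 0.109 or more, while 14 members were lower and 9 higher at an unadjusted p under 0.05.

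**Figure D1:**
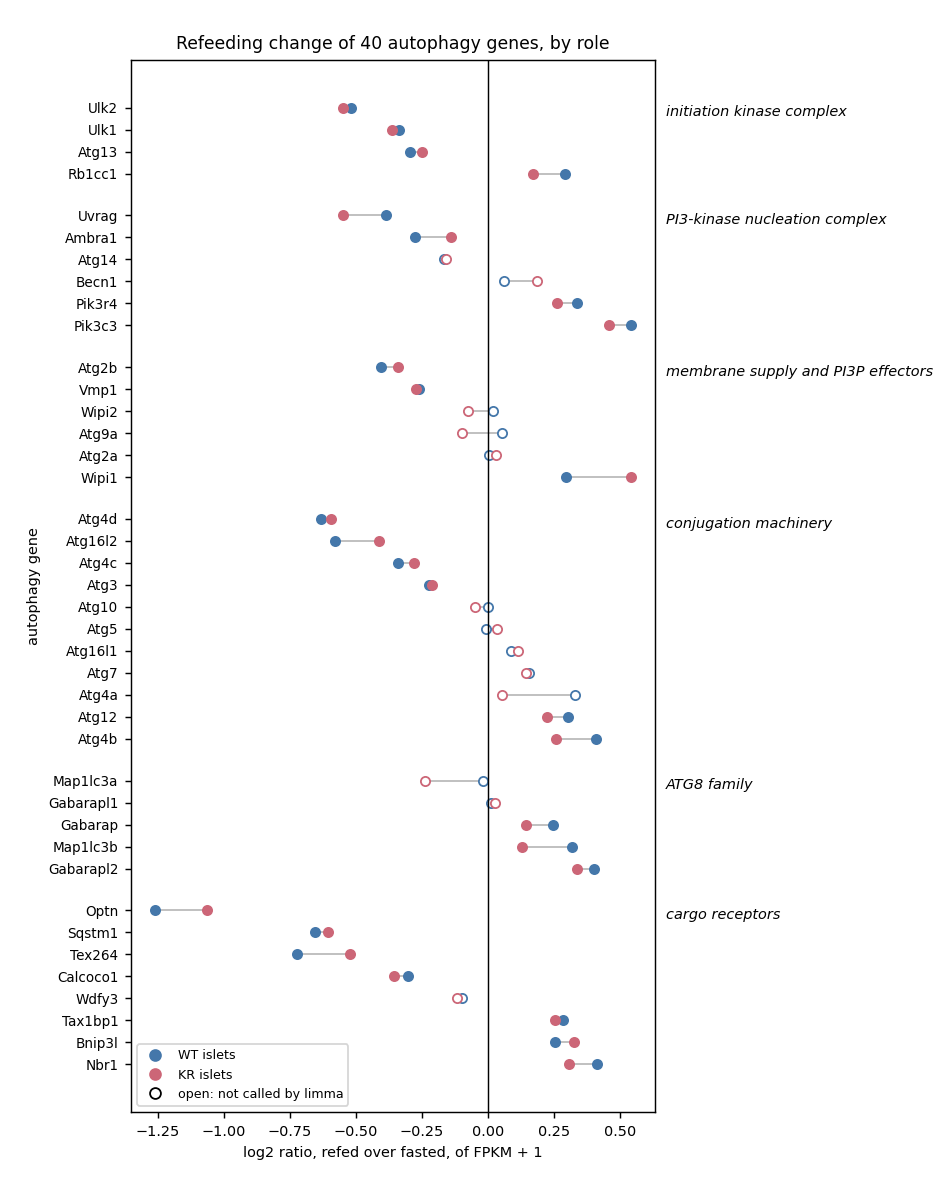
Log2 ratio of refed over fasted islets (x axis, on FPKM + 1) for each of the 40 autophagy genes (y axis), grouped by role, in WT (blue) and KR (red). Filled points are genes called by limma; the largest falls as fitted over both genotypes are those of Optn, Sqstm1, Tex264, Atg4d and Ulk2, and each role holds points on both sides of 0.

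Markers of cell types in the islet pools moved with feeding as well. The shares of all tested genes to set beside the counts below are 27.7% called higher and 29.2% called lower after refeeding. The summed level of 8 endothelial markers was 29.7 FPKM fasted and 18.4 refed in WT, and 21.2 fasted and 16.3 refed in KR, and 4 of the 6 tested were called lower after refeeding and 1 higher. Of 6 tested stellate cell and fibroblast markers 5 were called lower and 1 higher (summed level of 7, 22.5 to 29.1 FPKM refed and 35.1 to 37.0 fasted), and of 6 tested macrophage markers 2 were called lower (summed level of these 6, 160.5 to 186 FPKM refed and 197 to 222 fasted). Cd68 and Lyz2, the 2 called, made up most of the macrophage sum. Neither Aif1, higher in both refed libraries than in both fasted ones, nor the other tested macrophage markers were called. None of the markers summed here was at 0 in any library. Of the 9 tested beta-cell markers 6 were called higher after refeeding and 0 lower (summed level of these 9, 57815 to 81118 FPKM refed and 40795 to 55504.5 fasted; Ins2 has no value in fasted KR). Of 9 tested alpha, delta and PP cell markers 3 were called higher and 2 lower (summed level 42651 to 42997 FPKM refed and 34127 to 38821 fasted). The 10 acinar markers summed to 48.5 to 61.3 FPKM refed and 35.3 to 40.9 fasted. Cela1, the single acinar marker tested, was called higher after refeeding and made up most of that sum, while Ptf1a was listed at 0 in every library and between 2 and 6 of the 10 were at 0 in each. Of 4 tested duct markers 2, Krt7 and Krt19, were called higher and 0 lower (summed level of 7, 547 to 604 FPKM refed and 488 to 512 fasted), with Cftr at 0 in 3 libraries. Krt7 alone, at 413 to 521 FPKM, made up most of the duct sum. The part of all these markers in the values of the autophagy genes was not tested. In pooled islets fewer cells of a type and less RNA per cell cannot be told apart.

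Promoter sequences from RefSeq (GRCm38.p6, 250 bases before to 50 bases after a gene's start) were found for 32 of the 40 members and were searched on both strands for elements that fasting and stress factors are known to bind. The C/EBP-ATF element TGATGNAA, the TFEB element (CACGTG with GT before and AC after it) and the FoxO element GTAAACA were found in 0 of the 32, beside 2.66%, 0.844% and 3.09% of the 8533 tested genes with a promoter and 3.97%, 0.326% and 3.65% of all 32851 promoters in the table. The E-box CACGTG, which also forms the core of the TFEB element, was found in 4 (Atg3, Atg5, Atg7 and Atg14), beside 12.3% of the tested genes and 7.15% of all promoters. Of these 4 only Atg3 was called between feeding states. The 250 bases before the start are printed for Atg3, the called member with a match, for Sqstm1 and Optn, receptors that fell, and for Gabarapl2, the ATG8 gene with the largest rise. Capitals mark the E-boxes, which begin 94 and 71 bases before the start of Atg3. The positions are chr16:45158579-45158828 on the plus strand for Atg3, chr11:50210821-50211070 on the minus strand for Sqstm1, chr2:5064118-5064367 on the minus strand for Optn and chr8:111940453-111940702 on the plus strand for Gabarapl2, each read 5′ to 3′ along the gene. An absent match says only that these letters do not occur in the window searched.
Atg3: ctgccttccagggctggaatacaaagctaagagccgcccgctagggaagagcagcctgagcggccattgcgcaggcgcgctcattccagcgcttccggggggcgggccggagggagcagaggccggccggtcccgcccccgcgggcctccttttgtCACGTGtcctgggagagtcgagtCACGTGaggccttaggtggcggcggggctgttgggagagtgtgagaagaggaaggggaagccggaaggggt
Sqstm1: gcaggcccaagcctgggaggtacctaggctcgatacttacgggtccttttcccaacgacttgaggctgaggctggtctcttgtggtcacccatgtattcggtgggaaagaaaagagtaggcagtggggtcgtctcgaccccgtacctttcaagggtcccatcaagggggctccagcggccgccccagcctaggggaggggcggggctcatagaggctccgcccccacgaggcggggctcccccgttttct
Optn: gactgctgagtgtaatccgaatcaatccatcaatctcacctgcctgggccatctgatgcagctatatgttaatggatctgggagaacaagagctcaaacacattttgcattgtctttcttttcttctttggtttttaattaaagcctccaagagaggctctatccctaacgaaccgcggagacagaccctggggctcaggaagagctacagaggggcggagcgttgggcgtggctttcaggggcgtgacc
Gabarapl2: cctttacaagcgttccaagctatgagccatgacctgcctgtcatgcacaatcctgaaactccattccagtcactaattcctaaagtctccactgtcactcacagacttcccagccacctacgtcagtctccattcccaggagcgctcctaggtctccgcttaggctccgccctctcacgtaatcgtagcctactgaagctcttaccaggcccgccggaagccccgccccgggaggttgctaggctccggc

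Cargo receptor genes changed in both directions and held the 3 largest fitted falls. Of 8 measured receptors 4 fell after refeeding (Optn, Sqstm1, Tex264 and Calcoco1), 3 rose (Nbr1, Tax1bp1 and Bnip3l) and 1, the aggregate scaffold gene Wdfy3, was not called. Their median fitted difference was -0.22, beside -0.01 for all tested genes, of which 29.2% were called lower and 27.7% higher.

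Optn encodes optineurin, a receptor for ubiquitin-coated mitochondria and bacteria, and lies on chromosome 2 at 4941688 to 4984984 (mm9). Its level was 26.5 FPKM fasted and 10.5 refed in WT, and 22.01 fasted and 10.01 refed in KR. Both refed libraries thus lay below both fasted ones, and the fall, -1.16 ± 0.08 (SE of the model over 4 libraries; adjusted p = 1.3e-05), was the largest of the 40 genes. Optn was the single member at least 2-fold apart between libraries, with ratios on the log2 scale of -1.26 (WT) and -1.06 (KR), where 2.4% and 1.75% of all tested genes were at least 2-fold lower. With a pseudocount of 5 the KR ratio no longer reached 2-fold.

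Sqstm1 lies on chromosome 11 at 50013654 to 50024292 and was the most abundant member of the fasted islets. It stood at 861 FPKM fasted and 547 refed in WT, and 755 fasted and 495 refed in KR. The 4 libraries were ordered by feeding state first and by genotype within it, and Sqstm1 fell by a log2 difference of 0.63 ± 0.05 (adjusted p = 2.85e-05). In the refed libraries Gabarap, and not Sqstm1, had the highest level of the 40 genes.

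Tex264 encodes a receptor that delivers endoplasmic reticulum to autophagosomes and lies on chromosome 9 at 106561077 to 106588279. The level of Tex264 was 103 FPKM fasted and 62.1 refed in WT, and 74.9 fasted and 51.8 refed in KR. Fasted WT was the highest and refed KR the lowest, both refed libraries lay below both fasted ones, and Tex264 fell by 0.62 ± 0.07 (adjusted p = 0.000109). Calcoco1, another receptor gene with a role at the endoplasmic reticulum, fell by 0.33 ± 0.06 (adjusted p = 0.00249), from 31.2 FPKM to 25.1 in WT and 33.2 to 25.7 in KR.

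Nbr1, a ubiquitin-binding receptor gene related in domains to Sqstm1, moved the other way. It lies on chromosome 11 at 101413421 to 101443265 and stood at 72.6 FPKM fasted and 97.1 refed in WT, and 75.3 fasted and 93.3 refed in KR, with no overlap between feeding states. Its rise was 0.36 ± 0.06 (adjusted p = 0.00105). Tax1bp1, a further ubiquitin-binding receptor gene, rose by 0.27 ± 0.06 (adjusted p = 0.00359), with 84.2 FPKM fasted and 103 refed in WT, and 83.2 fasted and 99.4 refed in KR. Bnip3l, which encodes the mitochondrial receptor NIX and lies on chromosome 14 at 67604077 to 67627714, stood at 24.6 FPKM fasted and 29.6 refed in WT, and 25.3 fasted and 31.9 refed in KR, a rise of 0.29 ± 0.07 (adjusted p = 0.0052).

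**Figure D2:**
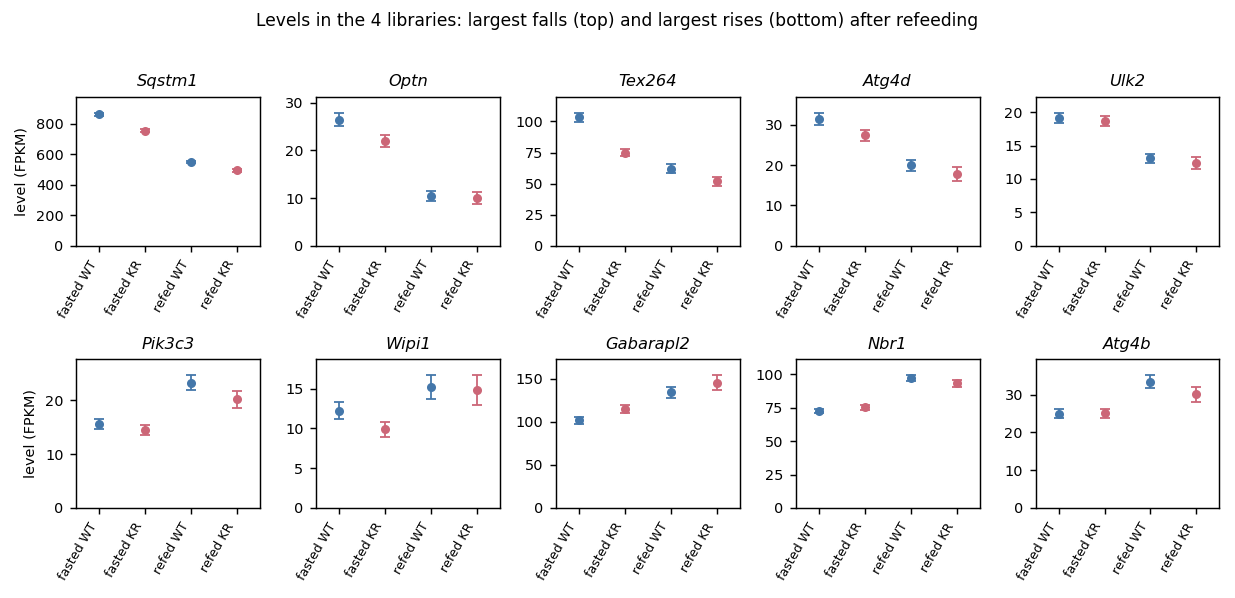
Level in FPKM (y axis, from 0) of the 5 genes with the largest called falls (top row) and the 5 with the largest called rises (bottom row) in each of the 4 libraries (x axis; WT blue, KR red). Points are single pooled libraries and bars the deposited bounds, which cover counting error only. The refed points lie below the fasted ones in every top panel and above them in every bottom panel, which the choice of genes favours.

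In the ATG8 family, whose proteins coat the growing membrane, 3 of 5 genes rose after refeeding and 0 fell. Called higher were 27.7% of all tested genes, and called lower 29.2%. Gabarapl2, on chromosome 8 at 114464603 to 114476815, had 102 FPKM fasted and 134 refed in WT, and 115 fasted and 145 refed in KR, and rose by 0.37 ± 0.06 (adjusted p = 0.000667). Map1lc3b, the LC3 gene most used as an autophagosome marker (chromosome 8, 124114368 to 124121947), had 98.0 FPKM fasted and 122 refed in WT, and 103 fasted and 113 refed in KR, and rose by 0.22 ± 0.06 (adjusted p = 0.0167). Gabarap (chromosome 11, 69804872 to 69808451) had 575 FPKM fasted and 683 refed in WT, and 559 fasted and 618 refed in KR, and rose by 0.20 ± 0.05 (adjusted p = 0.0127). For all 3 both refed libraries exceeded both fasted ones, but the calls of Gabarap and Map1lc3b were lost with genotype left out of the model and without a mean-variance trend (adjusted p = 0.0708 and 0.0664 for the latter, with ranges over 9 alternatives of 0.000202 to 0.256 and 0.000262 to 0.308).

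Gabarapl1 (chromosome 6, 129483210 to 129492349), at 224 FPKM fasted and 225 refed in WT, and 198 fasted and 201 refed in KR, differed by 0.02 ± 0.05 between feeding states (adjusted p = 0.8). Its libraries were ordered by genotype and not by feeding. Map1lc3a (chromosome 2, 155102100 to 155103809) stood at 49.2 FPKM fasted and 48.5 refed in WT, and 52.7 fasted and 44.5 refed in KR, with a difference of -0.13 ± 0.07 that was not called (adjusted p = 0.146). The family's summed level was 1048 FPKM fasted and 1213 refed in WT, and 1028 fasted and 1122 refed in KR. Gabarap alone supplied between 54.4% and 56.3% of it, Gabarapl1 between 17.9% and 21.4%, and Map1lc3a between 3.96% and 5.12%.

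**Figure D3:**
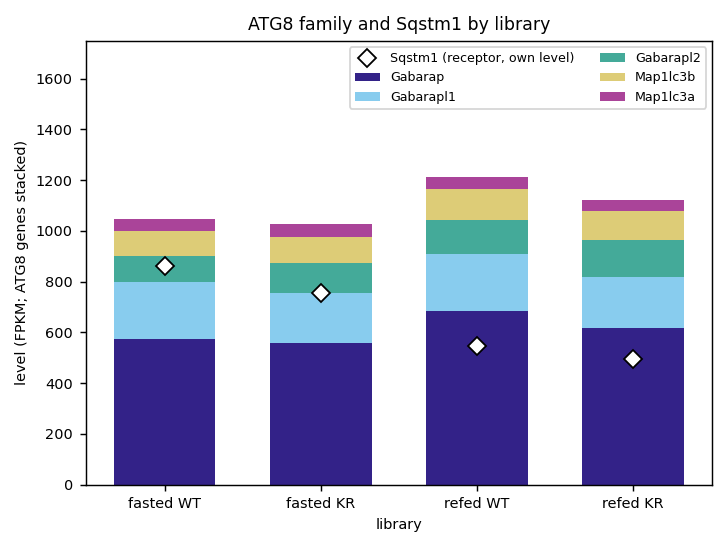
Level in FPKM (y axis, from 0) of the 5 ATG8 genes, stacked, in each of the 4 libraries (x axis), with the level of Sqstm1 as a diamond on the same axis. The ATG8 sum is 1048 and 1028 FPKM in fasted WT and KR and 1213 and 1122 in refed WT and KR, while Sqstm1 goes from 861 and 755 to 547 and 495.

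The initiation kinase complex had 4 measured members, of which 3 fell and 1 rose, with a median fitted difference of -0.31. For all tested genes the median was -0.01, with 29.2% called lower and 27.7% called higher. Ulk2, 1 of the alternative kinase subunits (chromosome 11, 61589100 to 61668594), had 19.2 FPKM fasted and 13.1 refed in WT, and 18.7 fasted and 12.5 refed in KR, a fall of 0.53 ± 0.07 (adjusted p = 0.000307). Ulk1, its paralogue (chromosome 5, 111213508 to 111239100), had 12.6 FPKM fasted and 9.78 refed in WT, and 13.2 fasted and 10.02 refed in KR, a fall of 0.35 ± 0.07 (adjusted p = 0.00377). Atg13, the adaptor subunit, fell by 0.27 ± 0.06. The scaffold gene Rb1cc1, which encodes FIP200, rose by 0.23 ± 0.08 (adjusted p = 0.03), with 10.2 FPKM fasted and 12.7 refed in WT, and 10.7 fasted and 12.2 refed in KR, so that the kinases and their scaffold changed in opposite directions in both genotypes. The calls of Rb1cc1 and of the later named Vmp1 and Atg3 were lost when genotype was left out of the model.

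In the lipid kinase complex 2 of 6 subunit genes rose (all tested genes 27.7%), 2 fell (29.2%) and 2 were not called. Its catalytic subunit gene Pik3c3 stood at 15.7 FPKM fasted and 23.3 refed in WT, and 14.4 fasted and 20.2 refed in KR, and its rise of 0.50 ± 0.07 (adjusted p = 0.000423) was the largest among the 40 genes, just under the 0.5 used above. The regulatory subunit gene Pik3r4 rose by 0.30 ± 0.07, with 12.9 FPKM fasted and 16.6 refed in WT, and 13.1 fasted and 15.9 refed in KR. Uvrag, an accessory subunit that acts in autophagosome maturation and endocytic traffic, fell by 0.47 ± 0.08 (adjusted p = 0.000891), with 17.99 fasted and 13.5 refed in WT, and 18.3 fasted and 12.2 refed in KR. Ambra1, which links Becn1 to the kinase complex, fell by 0.21 ± 0.07 (adjusted p = 0.0383), and its call was lost after rescaling by the median of ratios, without trend and with genotype left out. Atg14, the alternative to Uvrag that directs the complex to autophagosome formation, was at -0.16 ± 0.08 (adjusted p = 0.108). Becn1 itself (chromosome 11, 101149581 to 101163581), at 78.9 FPKM fasted and 82.2 refed in WT, and 74.1 fasted and 84.5 refed in KR, was at 0.12 ± 0.06 (adjusted p = 0.114).

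Among 6 measured genes of membrane supply and lipid binding, 1 rose and 2 fell, beside 27.7% and 29.2% of all tested genes. Wipi1, which binds the lipid that Pik3c3 makes (chromosome 11, 109434835 to 109472703), had 12.2 FPKM fasted and 15.2 refed in WT, and 9.86 fasted and 14.8 refed in KR, a rise of 0.42 ± 0.08 (adjusted p = 0.00284). The lipid transfer gene Atg2b fell by 0.37 ± 0.08, with 11.3 FPKM fasted and 8.32 refed in WT, and 10.2 fasted and 7.84 refed in KR, and Vmp1, an endoplasmic reticulum protein gene needed for membrane growth, fell by 0.27 ± 0.06, with 54.6 fasted and 45.4 refed in WT, and 45.9 fasted and 37.8 refed in KR. Their relatives Atg2a, at 0.02 ± 0.08, and Wipi2, at -0.03 ± 0.07, were not called, nor was the lipid scramblase gene Atg9a, at -0.02 ± 0.08. The microRNA gene Mir21 lies within the span of Vmp1, and how reads shared by the 2 were counted is not given in the sources used here.

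Of 11 conjugation genes 2 rose, 4 fell and 5 were not called, where 27.7% of all tested genes rose and 29.2% fell. The 4 proteases that trim ATG8 proteins and release them from lipid differed among themselves. Atg4d (chromosome 9, 21069743 to 21078812) stood at 31.5 FPKM fasted and 20.0 refed in WT, and 27.4 fasted and 17.9 refed in KR, a fall of 0.61 ± 0.07 (adjusted p = 0.00011). Atg4b, known as the most active of them on LC3 proteins (chromosome 1, 95651610 to 95686106), stood at 24.9 FPKM fasted and 33.4 refed in WT, and 25.0 fasted and 30.1 refed in KR, a rise of 0.33 ± 0.07 (adjusted p = 0.00346). Atg4c fell by 0.31 ± 0.08, and Atg4a was not called (0.19 ± 0.09, adjusted p = 0.116), with ratios on the log2 scale of 0.33 (WT) and 0.05 (KR). The span of Atg4d shares 912 bases with that of its neighbour Kri1, at a mean of 12.7 FPKM, so a part of its reads may be uncertain.

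Among the other conjugation genes 1 rose and 2 fell, beside 27.7% and 29.2% of all tested genes. Atg12, whose protein is joined to that of Atg5, rose by 0.26 ± 0.07 (adjusted p = 0.0114), with 16.0 FPKM fasted and 20.0 refed in WT, and 16.1 fasted and 19.0 refed in KR, and Atg3, which encodes the enzyme that passes ATG8 proteins to lipid, fell by 0.22 ± 0.06 (adjusted p = 0.017), with 35.7 fasted and 30.4 refed in WT, and 31.5 fasted and 27.0 refed in KR. Atg16l2, a relative of the scaffold gene Atg16l1, fell by 0.50 ± 0.08 (adjusted p = 0.000733), with 16.2 FPKM fasted and 10.5 refed in WT, and 15.6 fasted and 11.4 refed in KR, whereas Atg16l1 was at 0.10 ± 0.07 and not called. Atg5, at 26.6 FPKM fasted and 26.4 refed in WT, and 25.7 fasted and 26.3 refed in KR, and Atg10, whose enzyme joins the Atg12 protein to it, at 16.0 to 17.4 FPKM, had differences of 0.01 ± 0.06 and -0.02 ± 0.07. Atg7 was at 0.15 ± 0.08 (adjusted p = 0.137). The 13 members that were not called had fitted differences between -0.16 and 0.19.

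The ratio of refed over fasted had the same sign in the 2 genotypes for 36 of the 40 genes and opposite signs in 4 (Atg5, Atg9a, Atg10 and Wipi2), where opposite signs were found in 14.4% of all tested genes. The difference between the KR and the WT response was at most 0.28 on the log2 scale, for Atg4a, with a median size of 0.07, beside 0.11 for all tested genes. The log2 ratio of Map1lc3a was -0.02 in WT and -0.24 in KR, that of Map1lc3b 0.32 and 0.13, and that of Wipi1 0.29 and 0.54. These differences have no test, since an interaction would leave no residual degree of freedom.

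Between genotypes the autophagy genes differed little. Tex264 was the single member called, lower in KR, and 0 were higher, where 0.661% of all tested genes were called lower and 0.602% higher. Without adjustment, 7 members were lower and 1 higher at p under 0.05, together 8 of 40, beside 16.4% of all tested genes. The median log2 ratio of KR over WT was -0.04 for fasted and -0.06 for refed islets, beside -0.03 and -0.05 for all tested genes. No member was 2-fold apart between genotypes, where 0.243% of all tested genes were so when fasted and 0.368% when refed. Bounds of KR and WT lay apart for 10 members when fasted and for 8 when refed, beside 22.9% and 15.3% of all tested genes. Lower in KR in both feeding states were 22 members, or 55%, beside 42.7% of all tested genes, and higher in both were 6 of 40, beside 18.9%.

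Tex264 in KR islets was at 74.9 FPKM against 103 in WT in the fasted pair and at 51.8 against 62.1 in the refed pair, with bounds apart in both. The fitted difference was -0.36 ± 0.07 (limma adjusted p = 0.0463), lower in 2 of 2 pairs. Over 9 alternatives its adjusted p ran from 1.48e-06 to 1 and the call was kept in 4, being lost with a pseudocount of 5 (0.0661), after rescaling by the median of ratios (0.0808), without trend (0.234), with no filter (0.613) and with feeding left out of the model (1). Bounds lay apart in the same direction in both feeding states for 3 further members, all lower in KR, where 6.58% of all tested genes did so. These were Vmp1, at -0.25 ± 0.06 (adjusted p = 0.0947), Sqstm1, at -0.17 ± 0.05 (adjusted p = 0.167), and Gabarapl1, at -0.17 ± 0.05 (adjusted p = 0.171). Their adjusted p missed the threshold, although Sqstm1 and Vmp1 passed it in limma-voom on the implied fragments (adjusted p = 0.0283 and 0.00557, within ranges over 9 alternatives of 0.0283 to 1 and 0.00557 to 1). The member with the largest positive value was Gabarapl2, at 0.15 ± 0.06 (adjusted p = 0.243).

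**Figure D4:**
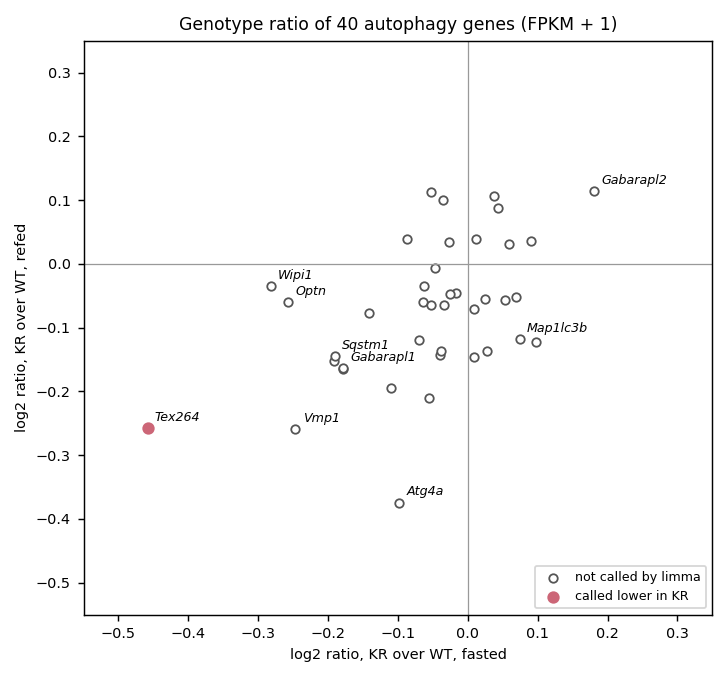
Log2 ratio of KR over WT (on FPKM + 1) in the fasted pair (x axis) and the refed pair (y axis) for the 40 autophagy genes, 1 point per gene. Tex264, the single called gene, lies at -0.46 and -0.26, and 22 points lie in the lower left, where a gene is lower in KR in both feeding states.

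Markers of cell types differed between the genotypes too, where 0.602% of all tested genes were called higher in KR and 0.661% lower. Of 9 tested alpha, delta and PP cell markers 1 was called higher in KR. Of 9 tested beta-cell markers 6 were called higher in KR, and 2 of 3 tested lymphocyte markers were called higher, at summed levels of 6 markers of 10.8 FPKM in both WT libraries, and 23.4 fasted and 16.3 refed in KR; 3 of the 6 were at 0 in every library but fasted KR. Endothelial markers, summed as above, were lower in KR in both feeding states, with 0 called. Whether these bear on Tex264 was not tested.

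Other genes of the pathway, from a list that holds no member, were split by direction as well. Of 57 tested, 14 rose and 20 fell after refeeding, with a median of -0.06, and 0 were called between genotypes, with 11 at an unadjusted p under 0.05. Among all tested genes 27.7% were called higher and 29.2% lower after refeeding, with a median of -0.01. Between genotypes 1.26% of all tested genes were called, and 16.4% had an unadjusted p under 0.05. Of 15 upstream regulators 2 rose and 9 fell, of 14 further receptors 6 rose and 3 fell, of 20 fusion and lysosome genes 6 rose and 5 fell, and of 8 nucleation and membrane genes 0 rose and 3 fell.

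The largest fall was in Stbd1, which encodes a receptor that brings glycogen to autophagosomes, from 78.5 FPKM in fasted WT and 63.3 in fasted KR to 16.1 in refed WT and 13.9 in refed KR (-2.16 ± 0.07, adjusted p = 4.74e-07). Sesn2, a leucine-binding restraint on the growth kinase complex mTORC1, fell by 1.45 ± 0.06, Mcoln1, a lysosomal calcium channel gene, by 1.26 ± 0.08, Sh3glb1, whose protein binds Uvrag, by 0.70 ± 0.06, and Tsc2, an inhibitor of mTORC1, by 0.65 ± 0.07. The largest rises were in Prkaa1, a catalytic subunit gene of the energy sensor AMPK, by 0.52 ± 0.06, Sec62, a translocon gene that also acts as a receptor for endoplasmic reticulum, by 0.45 ± 0.06, the SNARE genes Vamp8 and Ykt6, by 0.44 ± 0.05 and 0.42 ± 0.06, and the lysosomal membrane gene Lamp2, by 0.37 ± 0.05. Prkaa2, the other catalytic subunit gene of AMPK, fell by 0.36 ± 0.11 (limma adjusted p = 0.0189). Stbd1 and Sec62 are both receptor genes, and their changes had opposite directions in WT as in KR.

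Genes that other work places under a given factor were counted as lists, which overlap with the members. The shares of all tested genes to set beside these counts are 27.7% called higher and 29.2% called lower after refeeding. Between genotypes they are 1.26% called and 16.4% at an unadjusted p under 0.05. Of 12 autophagy genes reported to depend on ATF4 or CHOP, stress factors active when amino acids are short, 5 rose and 2 fell after refeeding, and Sqstm1 and Atg3 were those that fell. Of 10 reported to depend on FoxO factors 6 rose and 2 fell, the falls being Ulk1 and Ulk2, and 0 were called between genotypes, with 1 at an unadjusted p under 0.05, Gabarapl1. Of 6 tested genes reported to depend on TFEB, the master factor of lysosomal genes, 2 rose and 4 fell (Sqstm1, Uvrag, Vps11 and Vps18). Tfeb itself was at 3.24 FPKM fasted and 1.93 refed in WT, and 3.69 fasted and 2.16 refed in KR. The fall of Tfeb was 0.55 ± 0.11 (limma adjusted p = 0.00314). Foxo1 was at 17.4 FPKM fasted and 18.8 refed in WT, and 14.1 fasted and 13.8 refed in KR. Its difference between genotypes, -0.35 ± 0.07, was not called (limma adjusted p = 0.0667), though bounds lay apart in both feeding states.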

How the data were processed

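Poly-A RNA of pooled islets was made into Illumina TruSeq libraries, per the labels' protocols, which name no strand. The submitters' processing notes list bcl2fastq 1.8.4, TopHat2 2.0.4 and genome mm9. The authors deposited FPKM values with a lower bound, an upper bound and a status, per the file headers; what program made them is not given in the sources used here.

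The 23699 lines per library were summed by symbol (23235 symbols), and 189 symbols without an OK status in each library were left out. The squared ratio of FPKM to its standard error, the upper bound minus FPKM divided by 2, gave the implied fragments (26407138 fasted and 18096556 refed in WT, 25710982 fasted, without Ins2, and 11074655 refed in KR). Relative depth used 7982 genes with over 200 of them in every library. For 591 of 621 microRNA rows the deposited end minus start equalled the RefSeq length, so 1 was added to each start.

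The whole table of 11953 genes was fitted on log2(FPKM + 1) by limma (version 3.58.1; R 4.3.3) using its mean-variance trend, so fold changes of low genes are understated. With feeding and genotype as additive terms the model leaves 1 residual degree of freedom per gene, combined with a prior worth 7.58. Errors are its moderated standard errors. The p-values rest on the departure of these 4 pools from the additive model, and not on a spread between replicate pools. The script was tested on simulated data. Differences of 2 libraries have no test.

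Named with full values are the ATG8 family, members called between genotypes, and members called between feeding states at 0.5 or more. So are the 5 largest called changes in each direction, members 2-fold apart in a pair, and Ulk1, Becn1, Sqstm1, Nbr1, Wipi1 and Bnip3l. The others are accounted for by role, and the other pathway genes by the 5 largest called changes in each direction, besides Tfeb, Foxo1 and Prkaa2. The members and lists were chosen with earlier results of these data known. The 9 alternatives changed the pseudocount, the filter, the scaling, the trend, the prior, the values tested and the model.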

Additional observations from a re-analysis of the deposited data

Results flagged for a closer look

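Map1lc3b, the LC3 gene, was higher in KR than in WT islets in the fasted pair (log2 ratio 0.0743) and lower in the refed pair (-0.12). The 2 ratios have opposite signs, and the deposited bounds lay apart in the refed pair only. The difference between them was not tested, since each rests on a single library per group. Of the 40 autophagy genes 12 had genotype ratios of opposite sign in the 2 feeding states, beside 38.3% of all tested genes, and in the other 11 the bounds overlapped in both pairs. Of the 4 genes whose refeeding ratios had opposite signs in WT and KR, 0 had bounds apart in either genotype.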

How the results depend on the processing

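No paired analysis was possible because each group holds 1 library and the labels give no replicate numbers, and leaving out a library leaves the additive model no residual degree of freedom. The feeding counts of 12 higher and 15 lower members became 0 and 0 with no filter on low values, where 0 genes were called in all. Under the other 8 alternatives they lay between 9 and 12 and between 12 and 15, and each call so counted was also among the 12 or 15. The genotype count of 1 lower member became 0 with a pseudocount of 5, with no filter, after median-of-ratios scaling, without trend and with feeding left out of the model, and 3 in limma-voom on the implied fragments (Tex264, Sqstm1 and Vmp1). The count of 0 higher members stayed 0 under all 9. The number of members 2-fold apart in KR after refeeding went from 1 to 0 with a pseudocount of 5, since a larger pseudocount shrinks every log2 ratio. The causes of the other changes in count were not tested. Over all genes, 151 were called between genotypes, 5 without trend, 95 with a pseudocount of 5, 252 with a mean of at least 5 FPKM, 191 with a pseudocount of 0.1, 228 with a robust prior, 1 with feeding left out and 750 in limma-voom. Of the values of the named members under alternatives, 282 kept their side of the threshold, 23 lost and 1 gained a call. The refed KR library, the shallowest, had as few as 149 implied fragments for a member.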

Other observations

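Ratios of 2 autophagy genes within a library do not depend on how libraries are scaled. The pairs below were chosen after their values were seen and have no test. In each sentence the WT value comes before the KR value. Sqstm1 had 1.497 and 1.35 times the level of Gabarap in the fasted and 0.802 and 0.801 times in the refed libraries, with bounds apart in all 4. The level of Sqstm1 was 11.9 and 10.02 times that of Nbr1 when fasted and 5.64 and 5.31 times when refed. Optn was at 0.315 and 0.265 of the level of Tax1bp1 in the fasted and at 0.102 and 0.101 in the refed libraries, and Tex264 was at 4.19 and 2.96 times the level of Bnip3l in the fasted and 2.10 and 1.62 times in the refed. Among the ATG8 proteases Atg4d stood at 1.27 and 1.10 of the level of Atg4b in the fasted libraries and at 0.597 and 0.593 in the refed ones, so the order of the 2 genes was reversed, though their bounds overlapped in fasted KR. Uvrag went from 1.15 and 1.27 of the level of Pik3c3 to 0.582 and 0.605, and Ulk1 from 1.24 and 1.23 of the level of Rb1cc1 to 0.773 and 0.823.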
